A study of Mus musculus with 37 samples.

Results

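Pthlh, Vwc2, Btbd11, Kit, Eya1 and Th were listed together as genes of the Pthlh-type interneurons of the mouse striatum, and their chromatin accessibility was read from ATAC-seq counts of the nucleus accumbens. They are 6 of the 21887 protein-coding genes to which regions could be assigned, some of which held no region in these data. A gene was given all 200 bp regions in its body and in the 2 kb on either side on build mm10, which gave 97 of the 205848 regions in the table of PV nuclei at 60 min, 82 of the 178637 regions in the table of SST nuclei and 80 of the 171130 regions in the table of PV nuclei at 24 h. The rule that assigns regions to these genes uses no measured value, but the genes were chosen with earlier results of these data known.

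Single-cell surveys describe a striatal interneuron class marked by Pthlh, within which the level of parvalbumin varies along a gradient. The classical fast-spiking parvalbumin (PV) interneuron lies at one end of that gradient. Somatostatin (SST) interneurons are a separate class, although both arise from the medial ganglionic eminence (MGE), and interneurons that transcribe Th form a further class in the same tissue. ATAC-seq counts fragments cut by a transposase at open DNA, so that a high count marks an accessible region and not a transcript.

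All mice were compound heterozygotes for Sun1-GFP, a tag of the nuclear membrane that Cre switches on, and for Pvalb-IRES-Cre (PV libraries) or Sst-IRES-Cre (SST libraries), and were adults of P60-210. Nuclei bound by an anti-GFP antibody form the immunoprecipitate (IP) and the supernatant forms the unbound fraction (UF). The 37 libraries form 10 groups. At 60 min after 3 mg/kg amphetamine (AMPH) there were 4 PV IP and 4 PV UF libraries, and at 60 min after saline there were 4 of each. At 24 h after the last of 6 daily injections, with no dose in the labels, there were 4 PV IP and 4 PV UF libraries after AMPH and 3 PV IP and 4 PV UF libraries after saline. SST mice received saline and gave 3 IP and 3 UF libraries. The labels' protocol takes tissue from a single mouse for each sample, an IP and a UF library could come from the same mouse, and all buffers held sodium butyrate, an inhibitor of histone deacetylases. The PV pulldown holds whatever nuclei have ever expressed Cre from Pvalb, and was not sorted for Pthlh.

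Library depth, as counts over all regions, was 1.39 to 15.1 M in the PV table at 60 min, 6.57 to 11.8 M in the SST table and 0.651 to 9.66 M in the PV table at 24 h. The pulldowns held their labelled cells: Pvalb had 61.1, 67.0, 42.6 and 87.7 CPM (counts scaled to a common library total within a table) in PV IP of saline mice at 60 min, against 8.94, 6.16, 6.92 and 7.82 CPM in UF. Sst had 16.6, 11.4 and 12.2 CPM in bound SST nuclei, against 0.962, 1.62 and 1.15 CPM in UF. In PV nuclei of saline mice at 60 min, Sst averaged 3.56 CPM in IP and 1.60 CPM in UF, with every IP library above every UF library. That log2 fold change of 1.12 ± 0.40 (SE) did not pass (adjusted p = 0.0532, edgeR), and after AMPH at 60 min it was -0.05 ± 0.51. Of all genes tested, 12.2% were higher and 12.8% lower in PV IP of saline mice at 60 min, by the test and threshold given below. Of the marker lists, the MGE lineage list had 8 of 11 genes higher there and none lower, and the oligodendrocyte list had 6 of 6 lower. The PV interneuron list had 8 of 11 higher and 1 lower, the SST interneuron list 2 of 6 higher and 1 lower, and the cholinergic list 2 of 4 higher. Lower genes numbered 5 of 10 for spiny projection neurons, 3 of 4 for oligodendrocyte precursors, 2 of 4 for microglia, 1 of 5 for astrocytes, 1 of 5 for cortical glutamatergic neurons and 3 of 7 for immediate early genes, with none higher in these lists. The endothelial and mural list had 5 of 7 genes higher there, with a summed level of 127 to 249 CPM in PV IP against 71.6 to 95.9 CPM in UF. At 24 h that list stood at 300 to 379 CPM in PV IP against 50.1 to 92.9 CPM in UF of saline mice, and at 236 to 392 CPM in PV IP against 51.8 to 84.6 CPM in UF of AMPH mice. In SST nuclei it stood at 77.7 to 81.9 CPM in IP against 69.1 to 76.0 CPM in UF. The part of vascular nuclei in the results on the 6 genes was not tested.

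The promoters below are shown because the results turn on where in each gene the fractions differ. RefSeq entries on GRCm38.p6, the assembly of mm10, matched 5 of the 6 genes, with 6 listed starts. Each window runs from 250 bases before to 50 bases after a start, 5′ to 3′ on the strand of the gene. Capitals mark the bases that lie inside a deposited region of the PV table at 60 min. The windows are chr6:147263964-147264263 (minus strand) for Pthlh, chr10:85386564-85386863 and chr10:85598161-85598460 (both plus strand) for the 2 listed starts of Btbd11, and chr7:142899946-142900245 (minus strand) for Th.
Pthlh: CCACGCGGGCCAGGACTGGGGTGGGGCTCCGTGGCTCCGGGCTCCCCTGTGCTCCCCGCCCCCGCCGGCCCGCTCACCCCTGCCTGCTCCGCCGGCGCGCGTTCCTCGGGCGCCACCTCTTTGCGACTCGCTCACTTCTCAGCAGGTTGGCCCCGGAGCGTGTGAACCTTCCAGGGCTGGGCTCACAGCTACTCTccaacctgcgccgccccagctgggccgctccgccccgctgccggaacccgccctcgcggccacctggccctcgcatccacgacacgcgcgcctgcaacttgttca
Btbd11, first start: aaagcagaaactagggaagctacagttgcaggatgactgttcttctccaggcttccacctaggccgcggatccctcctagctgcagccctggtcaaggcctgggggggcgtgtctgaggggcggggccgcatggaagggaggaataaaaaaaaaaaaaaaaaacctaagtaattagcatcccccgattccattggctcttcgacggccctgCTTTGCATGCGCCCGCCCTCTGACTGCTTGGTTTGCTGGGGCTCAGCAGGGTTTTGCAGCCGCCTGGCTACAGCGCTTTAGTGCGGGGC
Btbd11, second start: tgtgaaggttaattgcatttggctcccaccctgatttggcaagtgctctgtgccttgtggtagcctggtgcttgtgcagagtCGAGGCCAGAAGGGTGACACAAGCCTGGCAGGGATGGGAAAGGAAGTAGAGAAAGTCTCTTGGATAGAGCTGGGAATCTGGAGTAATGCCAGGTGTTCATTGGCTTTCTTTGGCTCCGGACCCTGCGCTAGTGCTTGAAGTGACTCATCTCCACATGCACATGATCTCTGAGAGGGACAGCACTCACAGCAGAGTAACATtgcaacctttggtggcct
Th: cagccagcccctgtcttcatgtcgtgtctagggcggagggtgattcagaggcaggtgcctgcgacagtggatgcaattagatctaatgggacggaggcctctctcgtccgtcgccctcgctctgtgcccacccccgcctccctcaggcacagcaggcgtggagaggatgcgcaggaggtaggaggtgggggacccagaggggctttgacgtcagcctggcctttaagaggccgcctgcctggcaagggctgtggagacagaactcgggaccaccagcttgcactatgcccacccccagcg

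In the PV table at 60 min the Pthlh window held 195 bases of an accessible region, the first Btbd11 window 89 and the second 200, whereas no region of that table reached the Th window. In the PV table at 24 h a region lay inside the Th window (chr7:142900009-142900208, centre 114 bases upstream) and held 22.7% of the gene's counts there. The Pthlh window had 74% G or C and 33 CpG, against a median of 52.7% and 7 CpG over all 32851 promoter windows of the same length. It held 4 copies of GGGCGG, the GC box, which 35.7% of all windows held at least once when both strands were searched. The Th window held TGACGTCA, the cAMP response element, from 45 bases before the start, as did 1.79% of windows, and TGANTCA, the AP-1 element, as did 7.81% of windows. The second Btbd11 window held TGANTCA inside its capitals, 28 bases before the start. The first Btbd11 window held TAATTA, a homeobox core, as did 5.29% of windows. It lay outside the region of the PV table at 60 min. It lay inside those of the SST table (chr10:85386685-85386884) and of the PV table at 24 h (chr10:85386683-85386882). These matches describe letters only.

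In PV nuclei of saline mice at 60 min, 5 of the 6 genes had more accessible chromatin in IP than in UF. Every one of the 6 was tested, in edgeR's quasi-likelihood test with Benjamini-Hochberg adjustment over all 16933 genes tested, where an adjusted p under 0.05 counts as called. Of all genes tested, 25% were called in that comparison, 12.2% as higher and 12.8% as lower. The 6 genes were chosen with earlier results of these data known, so their count is not an independent comparison with these shares. Eya1 did not pass. In bulk libraries such a difference cannot be split into a difference in the share of nuclei and a difference in accessibility per nucleus.

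Pthlh encodes parathyroid hormone-related protein, a secreted ligand of the receptor Pth1r. It had 18.1, 20.6, 18.6 and 9.26 CPM in PV IP of saline mice at 60 min (replicates 1, 2, 4 and 5), against 5.37, 6.86, 9.79 and 5.66 CPM in UF. Replicate 5 of IP was lower than the other IP libraries and fell below replicate 4 of UF, so the fractions overlapped by that pair. The log2 fold change of IP over UF was 1.23 ± 0.28 (SE; adjusted p = 0.00485, edgeR). The region just upstream of the start (chr6:147264069-147264268, centre 156 bases upstream) held 68.8% of the gene's counts in this table. That region had 7.50, 13, 13.4 and 14.5 CPM in IP in ascending order, against 3.75, 3.78, 4.90 and 7.08 CPM in UF, with every IP library above every UF library. Its log2 fold change was 1.24 ± 0.29 (adjusted p = 0.00234, edgeR over all regions).

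Vwc2 encodes a secreted protein with von Willebrand factor C domains that binds and inhibits bone morphogenetic proteins (BMPs). It had 116, 100.4, 71.5 and 111 CPM in PV IP of saline mice at 60 min, against 36.3, 28.9, 35.5 and 31.9 CPM in UF, and the lowest IP library stood well above the highest UF library. Of its 18 tested regions, 14 were higher in IP and none lower, where 44.8% of all regions tested were called, 21.6% as higher and 23.2% as lower. The region nearest the start (chr11:11114117-11114316, 200 bases downstream) had a log2 fold change of 1.89 ± 0.27. The most different region (chr11:11122966-11123165) lay 9050 bases into the gene and had 3.00, 6.15, 7.43 and 12.2 CPM in IP in ascending order, against 0.551, 0.580, 0.657 and 1.54 CPM in UF (a log2 difference of 3.06 ± 0.47, adjusted p = 7.9e-05, edgeR).

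Btbd11, also named Abtb3, encodes an ankyrin-repeat and BTB/POZ protein found at glutamatergic synapses of inhibitory neurons. It held the most regions of the 6 genes, 44 in the PV table at 60 min. Its summed level was 319, 309, 207 and 354 CPM in PV IP of saline mice at 60 min, against 122, 102, 102 and 100.3 CPM in UF, with no overlap. The accessible regions of Btbd11 differed between the fractions to unequal degrees: 28 of 44 were higher in IP, none was lower, and the log2 fold changes ran from -0.47 to 4.82. Of all regions tested, 21.6% were higher and 23.2% lower. The region at the first listed start (chr10:85386775-85386974) was the most accessible one, with 31.8, 33.2, 37.5 and 39.9 CPM in IP in ascending order, against 17.9, 19.1, 20.3 and 21.5 CPM in UF, and differed by 0.80 ± 0.17 on the log2 scale. The region with the largest change (chr10:85429223-85429422, 42508 bases downstream) had 7.49, 12.3, 15.6 and 44.5 CPM in IP, against 0.258, 0.552, 0.708 and 1.48 CPM in UF. Its log2 fold change was 4.82 ± 0.58 (adjusted p = 2.7e-05, edgeR), and the highest IP library stood far above the other 3.

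Kit encodes the receptor tyrosine kinase of stem cell factor. It had 22.9, 27.6, 24.8 and 27.0 CPM in PV IP of saline mice at 60 min, against 19, 19.3, 16.3 and 15.3 CPM in UF. The fractions did not overlap, but the difference was the smallest of the 5 that passed (log2 fold change 0.54 ± 0.15, adjusted p = 0.0196, edgeR). The call was lost without UF replicate 4 (adjusted p = 0.0624), without UF replicate 5 (adjusted p = 0.0717) and when only regions within 1 kb of the gene's ends were summed (log2 fold change 0.27, adjusted p = 0.429). The start region (chr5:75574899-75575098) had 4.81, 7.20, 7.72 and 9.28 CPM in IP in ascending order, against 5.09, 6.18, 6.61 and 7.28 CPM in UF, and these ranges overlapped (log2 fold change 0.16 ± 0.28). A region 12972 bases into the gene (chr5:75587863-75588062) had 3.01, 4.13, 4.38 and 9.15 CPM in IP, against 0.580, 0.787, 0.986 and 0.993 CPM in UF (a log2 difference of 2.60 ± 0.42, adjusted p = 0.000131, edgeR). One region, 54692 bases in (chr5:75629583-75629782), went the other way, with 0, 0.103, 0.576 and 0.802 CPM in IP, against 1.42, 2.45, 2.79 and 2.98 CPM in UF (a log2 difference of -2.81 ± 0.62). In all, 3 of the 8 Kit regions were higher and 1 lower, where 21.6% and 23.2% of all regions tested were (44.8% called in all).

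Eya1 encodes a phosphatase and transcriptional co-activator that acts with homeobox proteins of the sine oculis family. It had 60.3, 35.4, 39.1 and 33.2 CPM in PV IP of saline mice at 60 min, against 59.7, 51.3, 48.2 and 53.5 CPM in UF. IP replicate 1 lay above all UF libraries and the other 3 IP libraries below them, and the log2 fold change of -0.37 ± 0.17 did not pass (adjusted p = 0.125, edgeR). With the replicate number as a block, which paired the saline IP and UF libraries of this table, the change was -0.40 and passed (adjusted p = 0.011), where that fit called 6649 genes instead of 4240, and it also passed without IP replicate 1 (-0.55, adjusted p = 0.00694). Summed over the gene's ends alone, the change was 0.33, the opposite sign.

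The sum over Eya1 covered regions that moved in both directions. Of 16 tested regions, 2 were higher and 7 lower in PV IP, where 21.6% and 23.2% of all regions tested were. Positions in Eya1 are given from the left end of the gene. The region at 13 kb (chr1:14181851-14182050) had 5.26, 8.25, 8.63 and 9.91 CPM in IP in ascending order, against 0.772, 1.29, 1.73 and 1.81 CPM in UF (a log2 difference of 2.45 ± 0.35, adjusted p = 5.2e-05, edgeR). The region at 65.4 kb (chr1:14234235-14234434) had 0.309, 1.15, 1.8 and 2.81 CPM in IP, against 8.03, 12.1, 12.2 and 14.9 CPM in UF (a log2 difference of -3.11 ± 0.42, adjusted p = 3.7e-05, edgeR). The most accessible region, at 141 kb (chr1:14309883-14310082), had 7.35, 8.83, 10.0 and 10.9 CPM in IP, against 4.3, 7.23, 8.03 and 8.70 CPM in UF, which overlapped, and changed by 0.34 ± 0.28.

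Th encodes tyrosine hydroxylase, the rate-limiting enzyme of catecholamine synthesis. It had 13.9, 19.7, 7.75 and 24.3 CPM in PV IP of saline mice at 60 min, against 8.23, 6.98, 5.74 and 6.28 CPM in UF. The IP libraries were widely spread, and replicate 4 of IP fell below replicate 1 of UF. The log2 fold change was 1.27 ± 0.30 (adjusted p = 0.00711, edgeR). The most accessible of its 5 regions (chr7:142894772-142894971), 5124 bases downstream of the start, changed by 0.22 ± 0.33 and did not pass. A region 4410 bases downstream (chr7:142895485-142895684) had 1.73, 3.00, 3.41 and 3.61 CPM in IP in ascending order, against 0.221, 0.236, 0.258 and 1.15 CPM in UF (a log2 difference of 2.78 ± 0.55, adjusted p = 0.00056, edgeR). A region 2230 bases downstream (chr7:142897665-142897864) had a log2 fold change of 2.90 ± 0.59. Axons of midbrain dopamine neurons carry Th protein into this tissue, and their nuclei lie outside it. Slc6a3, the dopamine transporter gene of those neurons, averaged 0.751 ± 1.03 CPM in PV IP against 1.71 ± 0.445 CPM in the unbound nuclei (SD, n = 4 each), and none of the 5 tested genes of the midbrain dopamine list passed. The summed level of that list was 101 to 125 CPM in PV IP against 106 to 116 CPM in UF. The part of midbrain nuclei in the Th result was not tested.

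**Figure D1:**
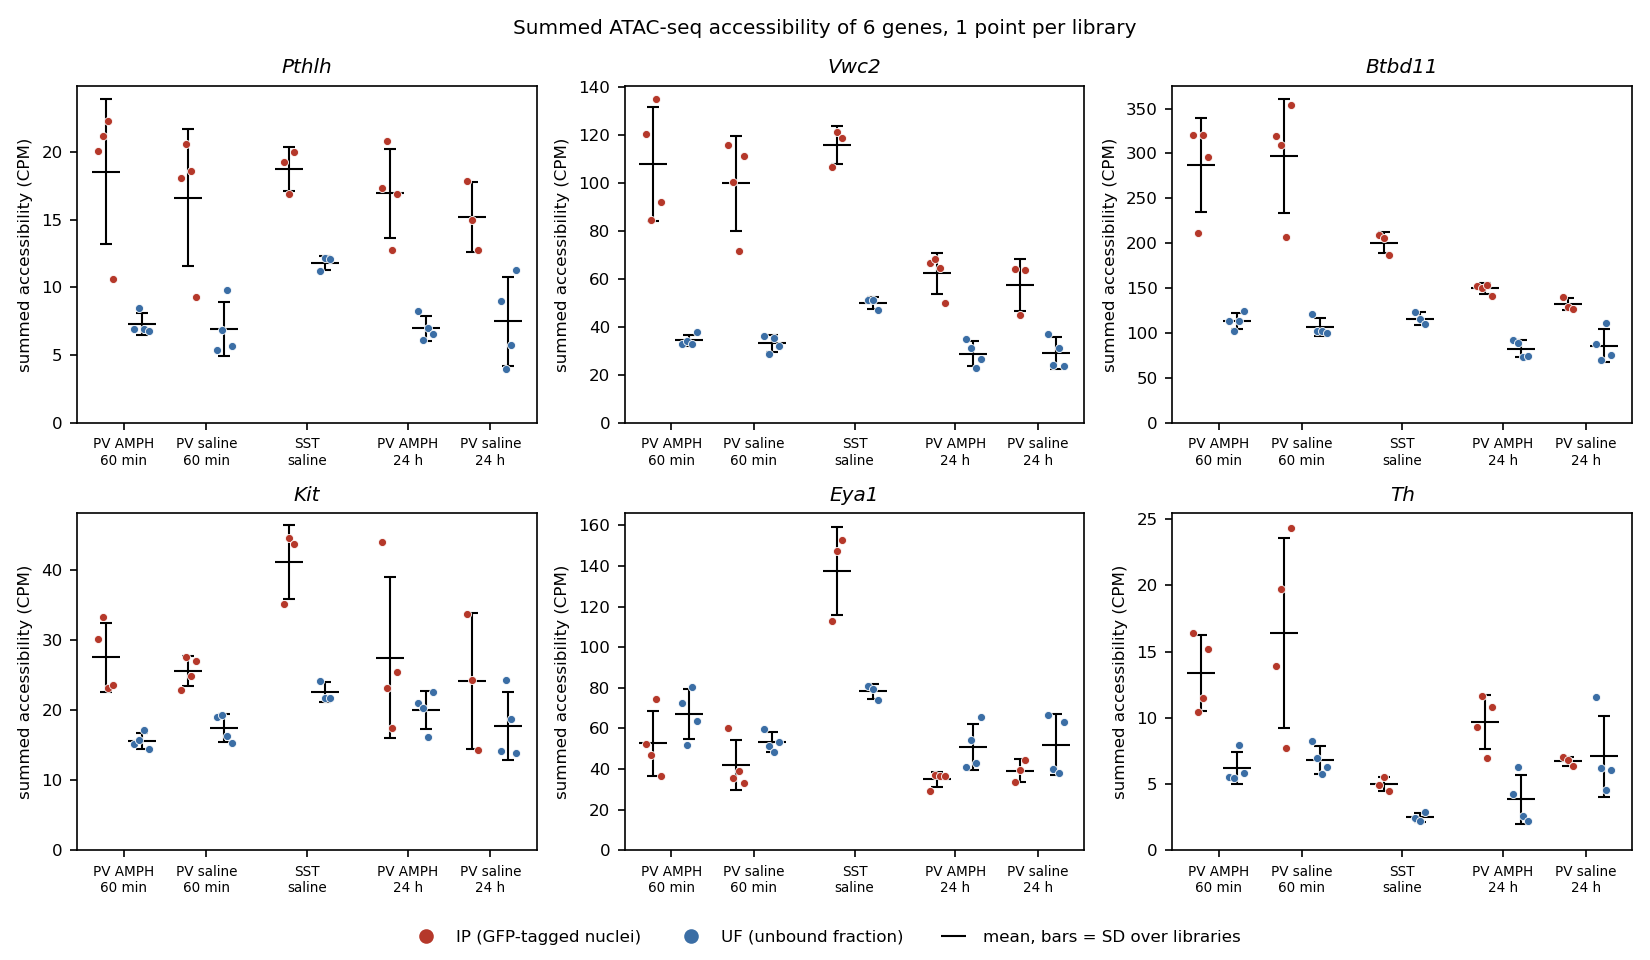
Summed accessibility in CPM (vertical axis, from 0) of the 6 genes in each of the 37 libraries, with 1 point per library, horizontal marks for group means and bars for the SD. CPM are scaled within each of the 3 tables, so levels can be compared between groups of the same table. For Eya1 the PV IP means lie below the UF means at both times and after both treatments, while its 3 SST IP libraries (113 to 153 CPM) lie above the 3 UF libraries (74.2 to 81.0 CPM).

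The same comparison in other mice, 60 min after AMPH, gave the same calls: the same 5 genes were higher and Eya1 did not pass (log2 fold change -0.30 ± 0.17, adjusted p = 0.193, edgeR). Of all genes tested there, 28.9% were called, 14.6% as higher and 14.3% as lower. Pthlh had 20.0, 21.1, 22.3 and 10.6 CPM in IP, against 6.94, 8.49, 6.89 and 6.78 CPM in UF. All 4 IP libraries lay above UF, and the log2 fold change was 1.39 ± 0.23 (adjusted p = 0.00023, edgeR). Kit differed by 0.84 ± 0.17, a call that was lost over the gene's ends alone (0.42, adjusted p = 0.241), and Th by 1.08 ± 0.25. Eya1 passed without IP replicate 3 (-0.51, adjusted p = 0.0221), the library with the highest Eya1 level in that group (74.7 CPM). Eya1 was also called lower with the replicate number as a block, and had a positive sign over the gene's ends (0.28). Of 72 tested regions of the 6 genes, 41 were higher and 5 lower, against 21.5% and 22% of all regions (43.5% called in all). Both Eya1 regions had the same direction here: the region at 13 kb changed by 2.22 ± 0.37 and the region at 65.4 kb by -2.50 ± 0.33. One further Eya1 region, at 95.2 kb (chr1:14264015-14264214), fell by 3.45 ± 0.63 on the log2 scale.

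**Figure D2:**
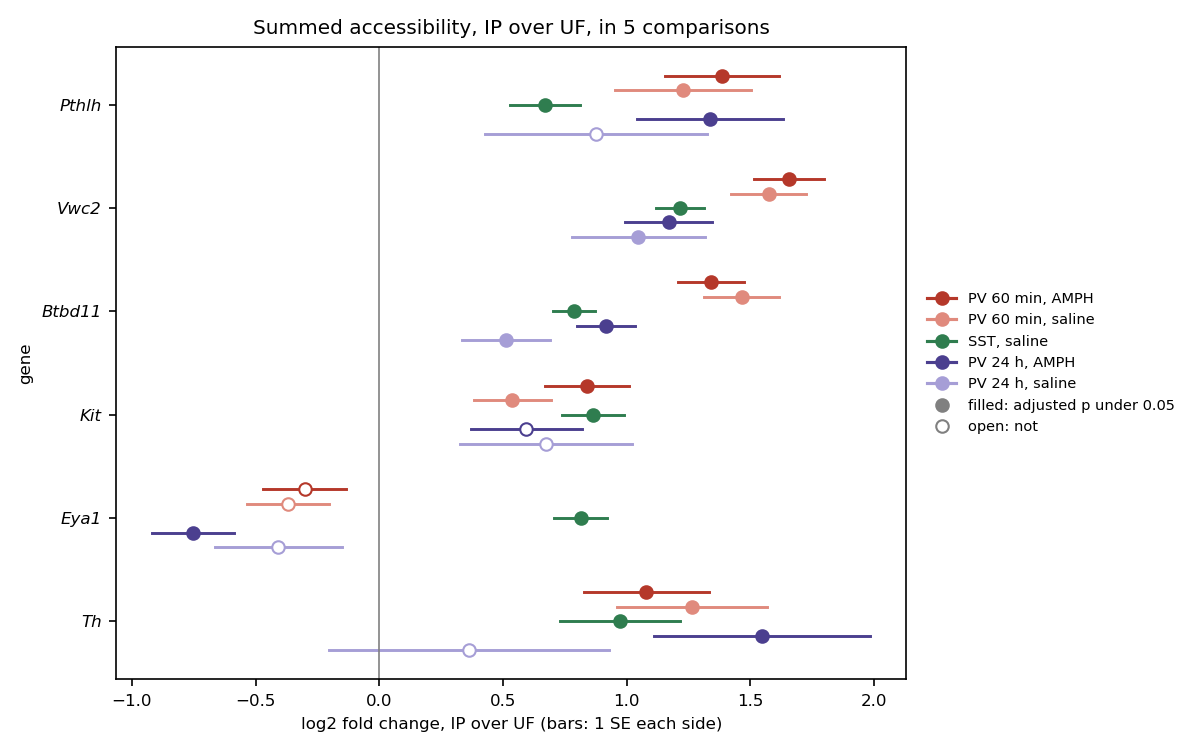
Log2 fold change of IP over UF (horizontal axis) for each gene in 5 comparisons, with bars of 1 SE each side. Filled points have an adjusted p under 0.05 over all genes tested. Pthlh, Vwc2, Btbd11, Kit and Th lie on the positive side in all 5, and Eya1 is positive in SST nuclei (0.81) and negative in the 4 PV comparisons (-0.75 to -0.30).

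In SST nuclei all 6 genes were more accessible in IP than in UF. Of all genes tested in SST nuclei, 58.3% were called, 28.9% as higher and 29.4% as lower. Eya1 had 113, 147 and 153 CPM in bound SST nuclei, against 81.0, 79.6 and 74.2 CPM in UF, and IP replicate 1 was the lowest of the IP libraries. Its log2 fold change was 0.81 ± 0.11 (adjusted p = 7.4e-06, edgeR). Kit had 35.1, 44.5 and 43.7 CPM in IP, against 24.1, 21.7 and 21.7 CPM in UF, a change of 0.86 ± 0.12 with no overlap. Pthlh had 19.2, 16.9 and 20.0 CPM in IP, against 11.2, 12.1 and 12.1 CPM in UF (0.67 ± 0.14, adjusted p = 0.000644, edgeR). Vwc2 changed by 1.22 ± 0.10, Btbd11 by 0.79 ± 0.09 and Th by 0.97 ± 0.24. Th rested on a single region (chr7:142894761-142894960) and on 22 to 38 counts per library. Of the 82 regions, 48 were higher and 4 lower, against 24.1% and 22.7% of all regions (46.8% called in all).

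The region just upstream of the Pthlh start did not pass in SST nuclei. This region (chr6:147264063-147264262) had 8.87, 10.6 and 11.3 CPM in bound SST nuclei in ascending order, against 6.4, 7.45 and 9.39 CPM in UF, with an overlap of the lowest IP and the highest UF library (log2 fold change 0.41 ± 0.20, adjusted p = 0.0764, edgeR). It passed without UF replicate 3 (0.58, adjusted p = 0.0405). A second Pthlh region, 400 bases into the gene (chr6:147263513-147263712), passed with 0.75 ± 0.30 (adjusted p = 0.0311, edgeR). That call was lost in DESeq2 (adjusted p = 0.0888), without IP replicate 1 (adjusted p = 0.116) and without UF replicate 1, 2 or 3 (adjusted p = 0.0561, 0.0673 and 0.0933). The start region of Kit passed in SST nuclei (0.90 ± 0.19), with 11.3, 14.9 and 19 CPM in IP against 7.16, 7.77 and 9.30 CPM in UF.

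**Figure D3:**
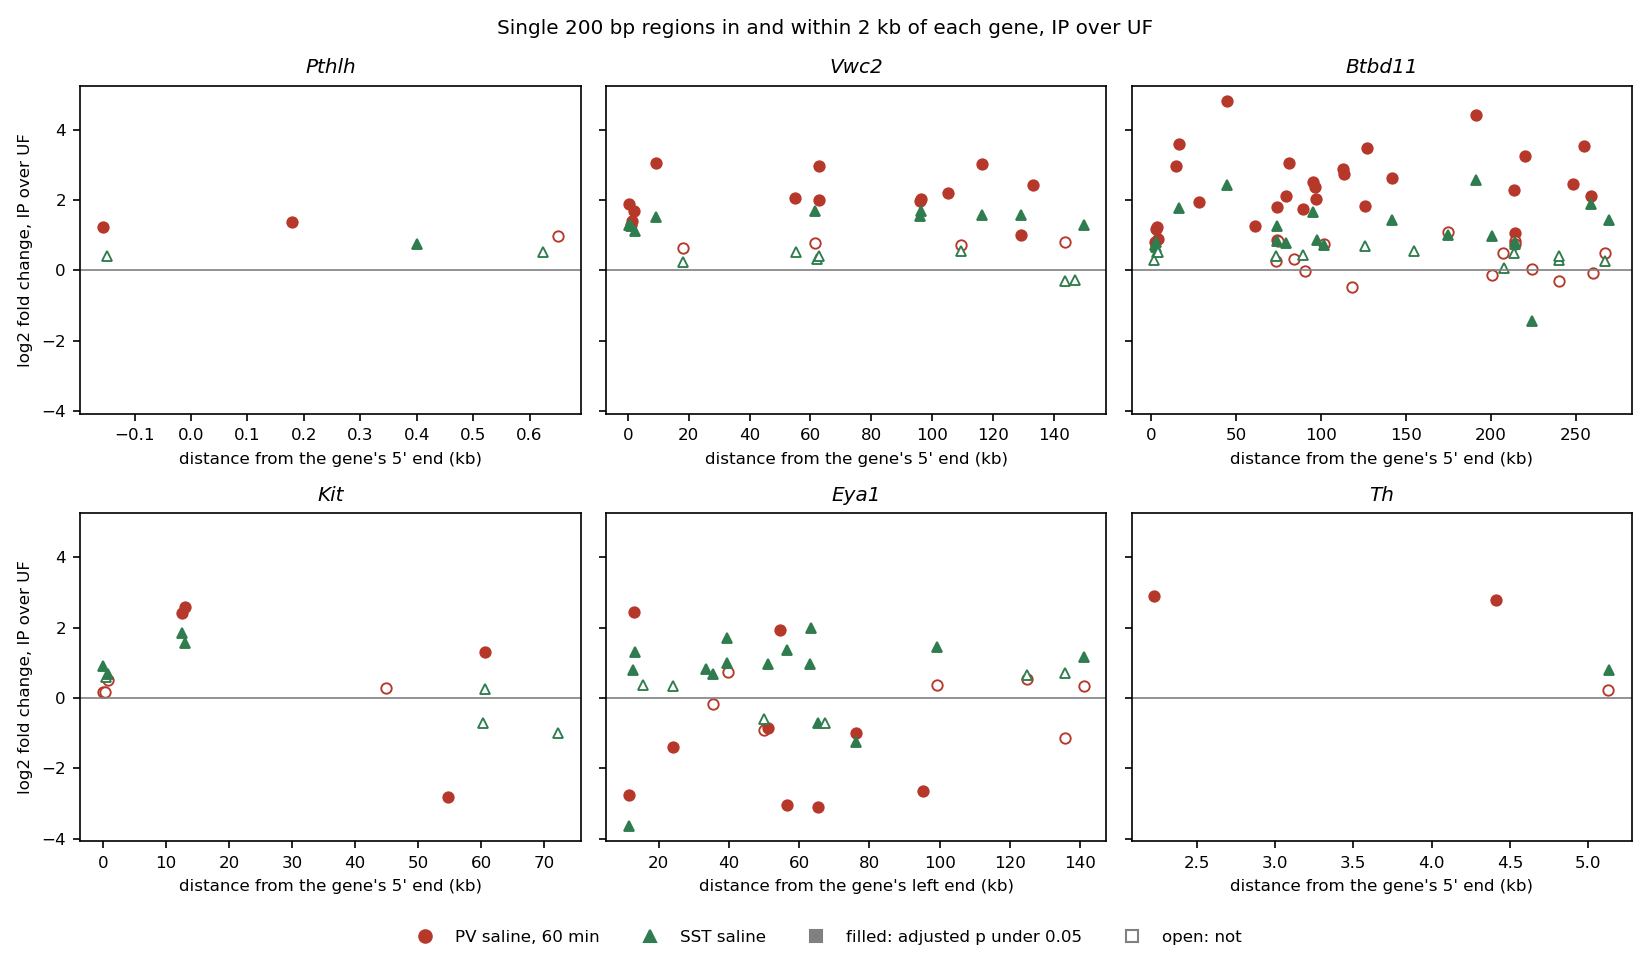
Log2 fold change of IP over UF (vertical axis) of single 200 bp regions by their distance in kb from the 5′ end of the gene, or from the left end for Eya1, in PV nuclei of saline mice at 60 min (circles) and in SST nuclei (triangles). Filled symbols have an adjusted p under 0.05. Regions of Vwc2 and Btbd11 lie mostly above 0 in both, and Eya1 regions lie on both sides, from -3.65 in SST nuclei to 2.45 in PV nuclei.

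Whether the enrichment in IP differed between PV and SST nuclei was tested in 1 fit of the saline libraries of both tables, as the log2 fold change in PV nuclei at 60 min minus that in SST nuclei. Cre driver and table cannot be told apart here, and 22.2% of all genes passed (11.4% above and 10.8% below). With the replicate block 5871 genes passed instead of 3686. Of the 6 genes, 2 passed, in opposite directions. Eya1 had the larger difference, -1.19 ± 0.22 (adjusted p = 0.00079, edgeR). Btbd11 differed by 0.67 ± 0.19 (adjusted p = 0.0150), a call that was lost without SST IP replicate 3 (adjusted p = 0.0502) or SST UF replicate 1 (adjusted p = 0.0511). Pthlh differed by 0.56 ± 0.34, Vwc2 by 0.35 ± 0.19, Kit by -0.33 ± 0.20 and Th by 0.28 ± 0.45, none of which passed. Vwc2 passed without PV IP replicate 4 (0.48, adjusted p = 0.0316), the lowest in Vwc2 of the PV IP libraries of saline mice at 60 min. Summed over the gene's ends, the Eya1 difference was -1 and missed the threshold (adjusted p = 0.055), and Th had a difference of -0.73 when summed over regions shared by both tables.

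Regions of the PV table at 60 min that overlapped an SST region by at least 100 bp were set against each other one by one. This alternative was added after the data had been seen, and 22.8% of 120274 matched regions passed. Of the 59 matched regions of the 6 genes, 6 had the higher enrichment in PV nuclei, 5 in Btbd11 and 1 in Vwc2. Another 6 had the higher enrichment in SST nuclei, 5 in Eya1 and 1 in Vwc2. For Btbd11 these were 5 of 24 matched regions, and for Eya1 5 of 14. Together the called differences made up no larger a share of the 59 regions than the 22.8% of all matched regions. Called as higher in both pulldowns were 18 regions, 9 in Btbd11, 7 in Vwc2 and 2 in Kit. The share of all matched regions higher in both is not given here, so that count is not set against a background.

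The second listed start of Btbd11, whose sequence is shown above, was one of the 5 Btbd11 regions with the higher enrichment in PV nuclei. It was chosen for description after its values were seen. The PV region (chr10:85598243-85598442) had 21.5, 16.0, 9.91 and 11.2 CPM in PV IP of saline mice, against 2.96, 2.96, 2.44 and 3.20 CPM in UF. The SST region (chr10:85598219-85598418) had 4.58, 6.02 and 5.12 CPM in bound SST nuclei, against 3.20, 4.51 and 3.4 CPM in UF. PV IP libraries were thus all several times above UF while SST IP libraries lay just above their UF libraries. The change of 2.28 ± 0.30 in PV nuclei exceeded that of 0.50 ± 0.25 in SST nuclei by 1.91 ± 0.40 in the joint fit (adjusted p = 0.00168, edgeR). After AMPH the same PV region had 13.7, 12.6, 17.8 and 12.8 CPM in IP, against 3.18, 2.89, 2.21 and 3.61 CPM in UF. At the first listed start the difference was 0.65 ± 0.21 (adjusted p = 0.0302), with 37.5, 33.2, 31.8 and 39.9 CPM in PV IP against 19.1, 17.9, 20.3 and 21.5 CPM in UF. The SST region there had 38.6, 37.2 and 38.4 CPM in IP, against 29.4, 29.6 and 34.6 CPM in UF. Levels are scaled within a table, so the difference is one of IP over UF in each.

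An Eya1 region at 56.6 kb moved in opposite directions in the pulldowns, and was also chosen after its values were seen. In PV nuclei of saline mice (chr1:14225462-14225661) it had 0, 0.103, 0.461 and 0.450 CPM in IP, from 0 to 4 counts per library, against 2.14, 1.55, 2.60 and 2.54 CPM in UF. In SST nuclei (chr1:14225449-14225648) it had 3.31, 4.51 and 5.88 CPM in IP, against 2.11, 1.57 and 1.61 CPM in UF. All PV IP libraries thus lay below their UF libraries and all SST IP libraries above theirs. The log2 fold changes were -3.04 ± 0.59 in PV nuclei and 1.37 ± 0.30 in SST nuclei, which differed by -4.27 ± 0.66 (adjusted p = 0.000165, edgeR). A fitted change against so few counts depends on the prior count. A second Eya1 region (chr1:14220031-14220230) had -0.87 ± 0.33 in PV nuclei and 0.97 ± 0.21 in SST nuclei, a difference of -1.71 ± 0.38. The region at 65.4 kb was lower in IP of both (-3.11 ± 0.42 in PV nuclei, -0.71 ± 0.20 in SST nuclei), and the region at 11.5 kb likewise (-2.76 ± 0.72 and -3.65 ± 0.37).

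**Figure D4:**
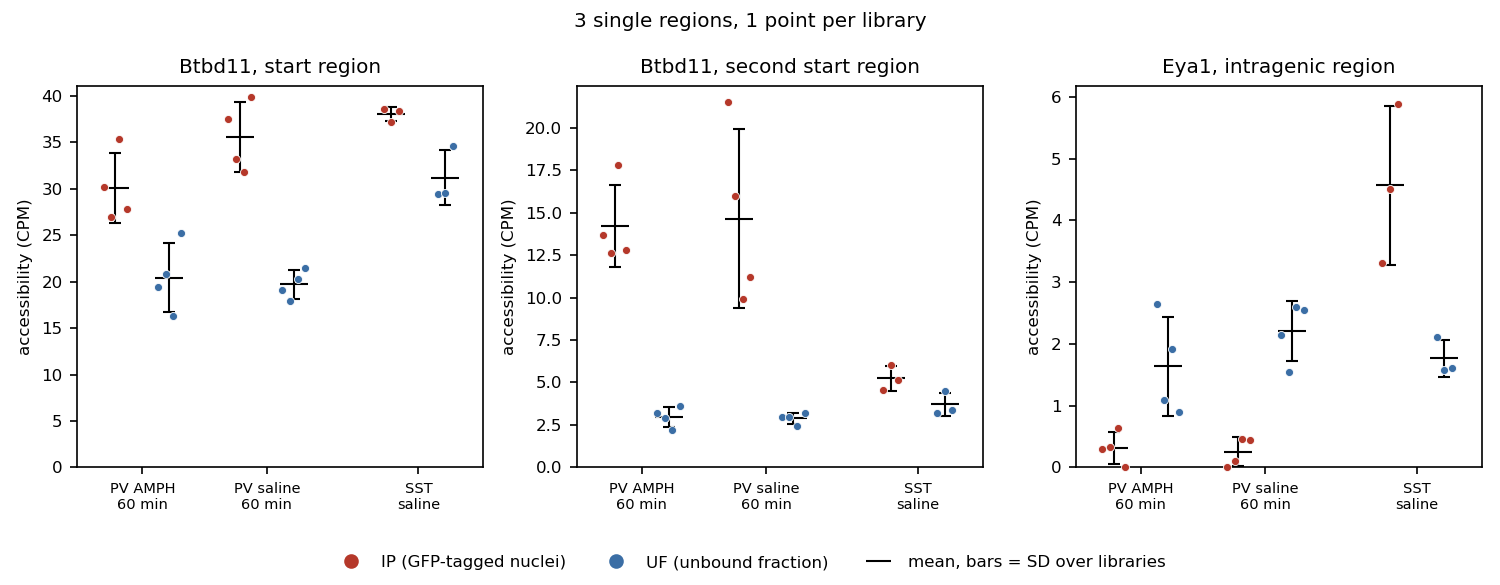
Accessibility in CPM (vertical axis, from 0) of 3 single regions in each library of the PV table at 60 min and of the SST table, with group means and SD bars. CPM are scaled within each table, so levels can be compared between groups of the same table only. At the second listed start of Btbd11 the PV libraries of saline mice lie at 9.91 to 21.5 CPM in IP and 2.44 to 3.2 CPM in UF. The SST libraries lie there at 4.58 to 6.02 CPM in IP and 3.2 to 4.51 CPM in UF. At the Eya1 region the PV libraries of saline mice lie at 0 to 0.461 CPM in IP and 1.55 to 2.6 CPM in UF. The SST libraries lie there at 3.31 to 5.88 CPM in IP and 1.57 to 2.11 CPM in UF.

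**Figure D5:**
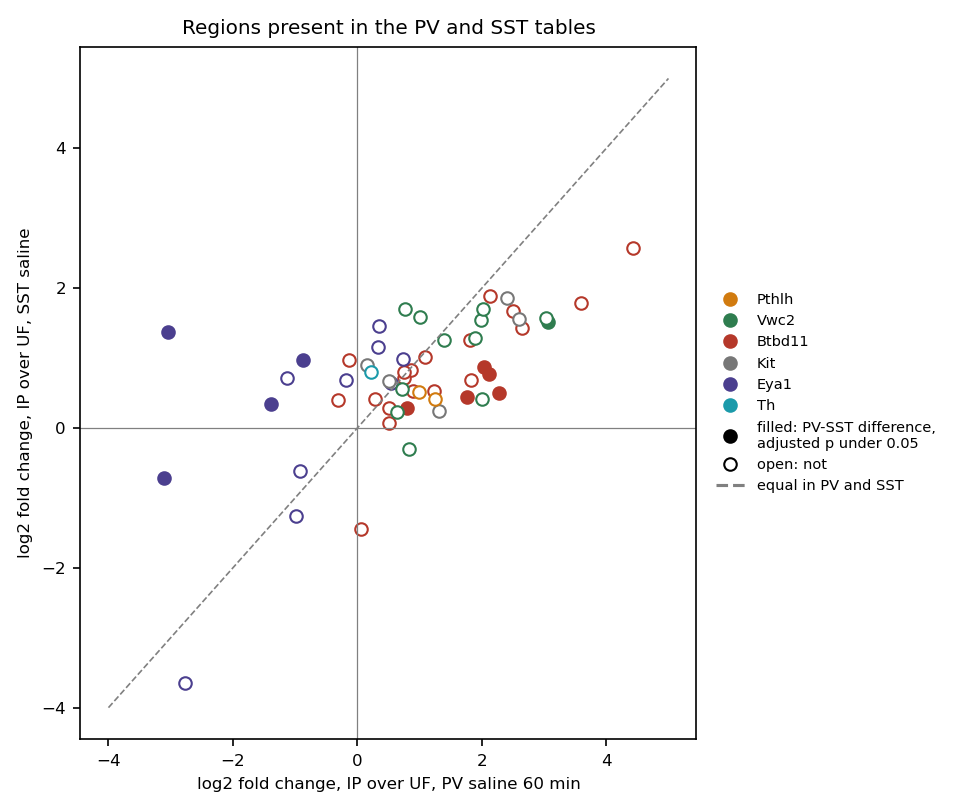
Log2 fold change of IP over UF in PV nuclei of saline mice at 60 min (horizontal axis) and in SST nuclei (vertical axis) for regions of the 6 genes that were matched between the tables and tested in both. Filled points differ between PV and SST nuclei with an adjusted p under 0.05. The filled Eya1 points lie above the line of equality and the filled Btbd11 points below it.

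At 24 h total counts were 0.651 to 5.5 M in PV IP and 0.769 to 3.52 M in UF of saline mice, and 2.59 to 9.66 M in PV IP and 2.25 to 6 M in UF of AMPH mice. The titles of these libraries carry an Iso number, which was a term of the fits but was not taken out of the CPM. All saline IP libraries were Iso2, whereas the saline UF libraries were of Iso1 and of Iso2. After repeated saline, 2 of the 6 genes were higher in PV IP, Vwc2 (1.05 ± 0.27, adjusted p = 0.00452) and Btbd11 (0.51 ± 0.18, adjusted p = 0.0401, edgeR), where 14.9% of all genes were called, 7.13% as higher and 7.74% as lower. Btbd11 had 139.8, 129 and 127 CPM in IP, against 87.3, 69.8, 111 and 75.4 CPM in UF, with no overlap. Vwc2 had 64.0, 45.0 and 63.6 CPM in IP, against 37.2, 24.2, 31.4 and 23.5 CPM in UF, also with no overlap. The Btbd11 call was lost without any 1 of the 3 IP libraries, without UF library Iso2-2 (0.26, adjusted p = 0.396), in DESeq2 (adjusted p = 0.085) and with the replicate block (adjusted p = 0.0651), and the Vwc2 call was lost without IP library Iso2-1 (0.93, adjusted p = 0.061) and over the gene's ends alone (0.40, adjusted p = 0.663). Pthlh had 17.8, 15 and 12.7 CPM in IP, from 8 to 99 counts, against 8.99, 3.94, 5.73 and 11.3 CPM in UF. All IP libraries lay above UF, but the change of 0.88 ± 0.45 did not pass (adjusted p = 0.190), and it passed at 1.03 when all groups of the table were fitted together (adjusted p = 0.0363). Kit (0.67 ± 0.35), Eya1 (-0.41 ± 0.26) and Th (0.36 ± 0.57) did not pass. For Th the counts were as low as 4 per library, and its fractions overlapped.

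After repeated AMPH, 4 of the 6 genes were higher in PV IP at 24 h and Eya1 was lower, where 24.4% of all genes were called, 12.3% as higher and 12.1% as lower. Eya1 had 29.0, 36.9, 36.8 and 36.8 CPM in IP, against 40.8, 54.4, 42.8 and 65.7 CPM in UF, and no library overlapped. Its change was -0.75 ± 0.17 (adjusted p = 0.000966, edgeR), and the call was lost without UF library Iso2-1 (-0.66, adjusted p = 0.0653), the only Iso2 library of UF after AMPH. Th had 9.32, 11.6, 6.97 and 10.8 CPM in IP, against 4.27, 6.29, 2.62 and 2.18 CPM in UF (1.55 ± 0.44, adjusted p = 0.00884), and that call was lost without the same library (1.02, adjusted p = 0.163). Of the 5 tested genes of the midbrain dopamine list, Nr4a2 was higher there (1.33) and the other 4 did not pass, and their part in the Th result was not tested. Pthlh changed by 1.34 ± 0.30, Vwc2 by 1.17 ± 0.18 and Btbd11 by 0.92 ± 0.12. Kit had 43.9, 23.1, 17.4 and 25.4 CPM in IP, against 21.0, 20.3, 16.2 and 22.6 CPM in UF, and did not pass (0.59 ± 0.23, adjusted p = 0.0511). Library Iso1-1, the only Iso1 library of IP after AMPH, held the high Kit value, and without it the change was -0.01. Without UF library Iso2-1 Kit passed at 1.18 (adjusted p = 0.00225), as it did without IP library Iso2-2 (0.68, adjusted p = 0.0259). It also passed without the low-count filter (0.59, adjusted p = 0.0498) and over regions of a single gene only (0.60, adjusted p = 0.0443).

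At single regions 3 of 28 tested were higher and 1 lower after repeated saline, against 8.61% and 10.9% of all regions (19.5% called in all), and 9 of 41 were higher and 1 lower after repeated AMPH, against 13.7% and 12.9% (26.6% called in all). The Eya1 region at 65.4 kb was the lower one in both (chr1:14234260-14234459, -1.93 ± 0.56 after saline and -2.20 ± 0.42 after AMPH). It had 2.8, 3.33 and 3.96 CPM in IP of saline mice in ascending order, against 5.51, 11.7, 12.3 and 13.5 CPM in UF. It was thus called lower in IP in the 4 PV comparisons and in SST nuclei. The call at 24 h was lost after saline without IP library Iso2-1 (adjusted p = 0.0739) or Iso2-2 (adjusted p = 0.108), and after AMPH without UF library Iso2-1 (adjusted p = 0.122). The Pthlh start region (chr6:147263988-147264187) had 9.05, 14.1, 14.2 and 18.9 CPM in IP of AMPH mice, against 5.45, 6.28, 6.92 and 7.9 CPM in UF (1.18 ± 0.36, adjusted p = 0.0149, edgeR). That call was lost without IP library Iso1-1 (adjusted p = 0.0808), without UF library Iso2-1 (adjusted p = 0.0944) and with the replicate block (adjusted p = 0.06).

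No effect of AMPH on the 6 genes passed. Neither fraction, at 60 min or at 24 h, had a gene with an adjusted p under 0.05 in edgeR, so that 0% of all genes were called. An unadjusted p under 0.05 was found for 250 of 16572 genes in PV IP and 607 of 16895 in UF at 60 min. At 24 h it was found for 598 of 16213 in PV IP and 557 of 15788 in UF. Each is under the 1 in 20 that chance alone gives at that threshold. DESeq2 called 0, 0, 0 and 1 genes in these comparisons. The test of AMPH by fraction called 0 genes at either time, and DESeq2 also called 0. There 76 of 17109 genes at 60 min and 658 of 16548 at 24 h had an unadjusted p under 0.05, again under 1 in 20. These tests share libraries with those of IP against UF.

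Pthlh changed by 0.21 ± 0.27 in PV IP at 60 min after AMPH, Vwc2 by 0.12 ± 0.18, Btbd11 by -0.05 ± 0.18, Kit by 0.13 ± 0.17, Eya1 by 0.37 ± 0.22 and Th by -0.33 ± 0.32. At 24 h the changes in PV IP were 0.11 ± 0.26 for Pthlh, 0.10 ± 0.17 for Vwc2, 0.15 ± 0.11 for Btbd11, -0.26 ± 0.23 for Kit, -0.05 ± 0.19 for Eya1 and 0.55 ± 0.35 for Th. The changes that were largest for their SE were those of Eya1 in UF at 60 min (0.32 ± 0.12, adjusted p = 0.97 in edgeR), Th in UF at 24 h (-1.02 ± 0.49, adjusted p = 0.999) and Th by fraction at 24 h (1.31 ± 0.59, adjusted p = 1). Eya1 had 72.5, 51.7, 80.3 and 63.8 CPM in UF of AMPH mice at 60 min, against 59.7, 51.3, 48.2 and 53.5 CPM in UF of saline mice, which overlapped. At single regions 0.0122% of all regions passed in PV IP at 24 h and 0.0527% in UF at 24 h, all lower, and none at 60 min, and no region of the 6 genes was among them.

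The partners of these genes in their pathways were taken from lists, and the counts are those of PV nuclei of saline mice at 60 min unless stated. All these gene-level tests were made with edgeR. Of all genes tested, 12.2% were called higher and 12.8% lower in those PV nuclei, and 28.9% and 29.4% in SST nuclei. Between PV and SST nuclei 22.2% passed. A count near these shares is not a result about a list. For the Pthlh list, of the 4 tested genes 1 was higher (Pthlh itself) and 1 lower, with a median log2 fold change of -0.09 against -0.00219 for all genes. The lower one, Pth2r, a receptor of the related peptide Pth2, averaged 15.1 ± 2.83 CPM in PV IP and 25.8 ± 5.54 CPM in unbound nuclei (SD over 4 libraries each), a change of -0.79. In SST nuclei Pth2r was higher (0.50), and the difference between PV and SST nuclei was -1.29 (adjusted p = 0.000768). Pth1r, the receptor of Pthlh, did not pass in saline mice at 60 min and was higher in PV IP after AMPH at 60 min (0.50) and in both groups at 24 h (1.34 after saline and 1.19 after AMPH). Pericytes and smooth muscle also express Pth1r. Beside the endothelial and mural levels given above, that list stood at 95.7 to 235 CPM in PV IP against 72.2 to 102 CPM in UF after AMPH at 60 min, which overlapped. The part of vascular nuclei in the Pth1r result was not tested.

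Of the BMP list, 6 of 18 tested genes were higher in PV IP and 1 lower, with a median of 0.39. Besides Vwc2 these included the BMP antagonist Grem1 (25.3 ± 8.58 CPM in PV IP and 9.29 ± 2.15 CPM in unbound nuclei, SD over 4 libraries each) and the ligand Bmp4 (1.24). The ligand Bmp6 was lower (-0.80), at 29.3 ± 6.25 CPM in IP against 50.2 ± 3.41 CPM in UF. In SST nuclei 13 of 18 were higher and 2 lower. Vwc2l, the paralog of Vwc2, rose by 1.35 there, and Bmp6 was higher (0.54), which gave a difference of -1.35 between PV and SST nuclei. Of the list of Btbd11 relatives and postsynaptic scaffolds, 2 of 8 were higher, Btbd11 and its paralog Abtb2 (0.54), and none lower, with a median of 0.11. In SST nuclei 2 were higher, Btbd11 and the scaffold Shank2 (0.63), and 3 lower, among them Dlg4, the gene of PSD-95 (-0.44).

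For Kit and its signalling partners, 2 of 10 tested genes were higher, Kit and the adaptor Gab2 (0.96), and the adaptor Grb2 was lower (-0.60), with a median of -0.10. In SST nuclei 2 were higher and 6 lower, with Ptpn6, a phosphatase abundant in blood-derived cells and microglia, lowest (-1.79). The microglia list was lower in all 5 of its genes there. Kit also marks mast cells. Of the mast cell list only Hdc had enough counts to be tested in PV nuclei, with no change that passed, and Tpsb2, Mcpt4 and Ms4a2 had no region in the PV tables, nor did Cpa3. Cpa3 averaged 8.49 ± 2.66 CPM in bound SST nuclei and 2.29 ± 0.827 CPM in unbound nuclei (SD over 3 libraries each). Its part in the Kit result in SST nuclei was not tested.

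For Eya1 with its paralogs and its partners of the sine oculis and Dach families, 2 of 11 tested genes were higher and 2 lower, with a median of -0.28. Six4 (1.43) and Eya4 (0.88) were higher, and Eya2 (-0.93) and Dach2 (-1.28) were lower. Six4 averaged 19 ± 5.91 CPM in PV IP and 6.93 ± 0.756 CPM in unbound nuclei (SD over 4 libraries each). In SST nuclei Six4 (1.02), Eya4 (0.84), Eya1 and Dach1 were higher, and Six5 (-1.40) and Eya2 (-0.67) were lower. Between PV and SST nuclei 3 of 11 passed, against 22.2% of all genes, each below in PV: Dach2 (-1.72), Eya1 and Dach1 (-0.66).

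In the catecholamine list, 2 of 14 tested genes were higher in PV IP and 1 lower, with a median of 0.15. Of all genes, 12.2% were higher and 12.8% lower. Gch1, whose enzyme makes the cofactor of tyrosine hydroxylase, averaged 26 ± 3.02 CPM in PV IP and 10.4 ± 1.82 CPM in unbound nuclei (SD over 4 libraries each), a change of 1.30 (adjusted p = 0.000214). Ddc, the next enzyme after tyrosine hydroxylase, and the vesicular transporter gene Slc18a2 did not pass in PV nuclei, and in SST nuclei both were higher (0.38 and 0.79). Of the list of Th-expressing and other striatal interneurons, 2 of 8 tested genes were higher in PV IP, Trh (1.53) and Prox1 (0.67), and 1 was lower, Npy1r (-1.12), with a median of 0.447.

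Which genes followed the 6 most closely was described by Pearson's r of log2 CPM over the 37 libraries after the mean of each table was removed, over 16146 genes. The libraries share depth and fraction, so r mainly carries the difference of IP and UF, and no test was made. Pthlh was closest to Acan (0.889), the gene of the perineuronal net proteoglycan aggrecan. Vwc2 and Btbd11 were close to each other (0.97), and Btbd11 was closest to Rap1gap2 (0.975). Kit was closest to Gpat3 (0.834) and Lhx8 (0.83), a transcription factor of MGE-derived and cholinergic neurons, Eya1 to Adamts12 (0.857) and Th to Arhgap22 (0.837). Eya1 had r of -0.313 to -0.216 with the other 5 genes, which had r of 0.555 to 0.97 with each other.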

How the data were processed

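ATAC-seq was measured in IP and UF nuclei of the mouse nucleus accumbens. The 3 deposited tables hold raw counts of reads per 200 bp region, made by the authors. Per the submitters' processing notes, the tools were bedtools 2.25.0, Bowtie2 2.3.4.3, DESeq2 1.18.1, cutadapt 1.8.3, deepTools, MACS2 2.1.2, FastQC 0.11.2 and R 3.4.4. How regions were merged and whether reads were shifted for the transposase is not given in the sources used here.

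Counts of regions in a gene body plus 2 kb each side were summed per gene. They were tested with edgeR 4.0.16 (quasi-likelihood, TMM, at least 10 counts by filterByExpr and 15 in total, two-sided) in R 4.3.3 with limma 3.58.1, with Benjamini-Hochberg adjustment over all genes or all regions. CPM used TMM over all libraries of a table. Fits at 24 h carried the Iso number of the titles as a term, whose meaning the labels do not give. The Iso numbers were unequally spread over IP and UF. SE is the absolute log2 fold change divided by the square root of F. The tables were fitted separately, except for PV against SST, and the steps were tested on simulated data. Precision follows from total counts of 0.651 to 15.1 M per library.

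The members and lists were chosen with earlier results of these data known. Named regions were the most accessible one per table, the one nearest a listed start within 1 kb, and the called one with the largest change on each side. From each of 21 lists at most 4 called genes per comparison were to be named, and markers that define a cell type were added after their values were seen. Some genes counted in the lists are not reported here by name. The replicate number paired the saline IP and UF libraries at 60 min, whose deviations correlated at 0.521, 0.666, 0.264 and 0.225. Alternatives were DESeq2 1.42.0, its size factors, no filter, other gene windows, a replicate block, all groups in 1 fit, no Iso term, and each replicate left out. GenomicRanges 1.54.1 matched regions.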

Additional observations from a re-analysis of the deposited data

Results flagged for a closer look

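Of 42 combinations of a gene and a group of 4 libraries, 4 combinations in 3 groups had 1 library far from the other 3. Chance alone sets apart about 1 in 20, which is 2.1 of 42. Btbd11 in UF of saline mice at 60 min had 122 CPM in replicate 1, above the 100.3 to 102 CPM of the others. Eya1 in PV IP of AMPH mice at 24 h had 29.0 CPM in library Iso1-1, below the 36.8 to 36.9 CPM of the others. Pthlh in UF of AMPH mice at 60 min had 8.49 CPM in replicate 2, and Th in the same group had 7.96 CPM in replicate 3.

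The enrichment in IP differed between PV and SST nuclei for Btbd11 (0.67 on the log2 scale) and for Eya1 (-1.19) by the interaction test. All SST IP libraries lay above UF for Eya1 (0.81), and all PV IP libraries of AMPH mice at 24 h lay below UF (-0.75). The difference between these last 2 comparisons was not tested.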

How the results depend on the processing

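Of the values recomputed under other settings, 2941 kept their direction and their side of the threshold, or stayed within the margin for counts. A further 78 changed sign, 60 lost the threshold, 13 gained it and 94 counts moved by more than 1.5 times. The cause was not tested, except that a library left out or a window narrowed leaves fewer counts. The matched regions of PV and SST nuclei were chosen after the data were seen. Depth went down to 0.651 M counts per library at 24 h, where Th had as few as 4.

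With regions within 1 kb of the gene's ends only, Btbd11 and Th, and at 24 h also Eya1, had no tested value and so could not be called, which lowers the counts of members below by construction. In this setting Eya1 in PV IP against UF was 0.33 after saline and 0.28 after AMPH at 60 min. Members called higher numbered 2 after saline and 2 after AMPH at 60 min, 0 after saline and 2 after AMPH at 24 h, and 0 were lower in the last. Genes called numbered 2212 (saline) and 2584 (AMPH) at 60 min, 1182 (saline) and 2121 (AMPH) at 24 h, and 1812 between PV and SST nuclei, with 0 members above and 0 below. The change with AMPH at 60 min was -0.16 for Kit in IP, -0.09 for Vwc2 in UF and -0.05 for Eya1 by fraction.

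With the replicate block, Eya1 became the 1 member called lower after saline and also the 1 after AMPH at 60 min. That paired fit called 6649 genes after saline at 60 min and 5871 between PV and SST nuclei, and 1 member higher after saline at 24 h. After AMPH at 24 h it called 14992 regions, 5 of them higher members. The start region of Kit was 0.15 and the Th region 0.01 there, and the Eya1 region at 140.9 kb was -0.03 after saline. For AMPH against saline the block gave Pthlh -0.13 in IP at 60 min and 0.22 in UF at 24 h. It called 2 genes and 8 regions in UF at 60 min, 31 regions in IP at 24 h, 1 gene in UF at 24 h and 4 regions by fraction at 24 h. For AMPH against saline within a fraction, same-numbered libraries came from mice given different injections, so the number cannot pair a mouse there. Between IP and UF, apart from the saline pairs at 60 min, whether same-numbered libraries were pairs was not settled. After AMPH at 60 min, IP replicates 2 and 3 correlated best with UF of their own number (r = 0.554 and 0.208). IP replicates 1 and 4 correlated best with UF of another number (r with their own 0.0983 and 0.0762).

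DESeq2 called 1 member higher, 9185 regions and 1 higher member region after saline at 24 h, and 2 lower member regions after AMPH at 24 h. For AMPH against saline it called 2 regions in UF at 60 min, 5 regions in IP at 24 h, 1 gene in UF at 24 h and 21 regions by fraction at 24 h. Without the low-count filter, member regions called were 8 lower after AMPH at 60 min, and 16 higher and 2 lower after AMPH at 24 h. The AMPH tests at 24 h then called 36 regions in IP, 78 in UF and 1 by fraction.

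With all groups of a table in 1 fit, 8 member regions were lower after AMPH at 60 min. At 24 h 23001 regions were called after saline, with 8 higher member regions, and 2 member regions were lower after AMPH, where the Th region was 0.39. The AMPH tests at 24 h called 0 regions in IP and 6 in UF, with Vwc2 at 0.00 in UF. Without the Iso term, the Th region was 0.44 after AMPH at 24 h. For AMPH against saline at 24 h, Kit was 0.04 in IP with 0 regions called, and Vwc2 was 0.04 in UF. With gene bodies only, Pthlh was -0.11 for AMPH in UF at 60 min, and 1 gene was called in UF at 24 h, as with regions of a single gene only (1 gene). Over regions shared by both tables, Th was -0.73 between PV and SST nuclei.

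Leaving out each library in turn, members called lower in PV IP ranged from 0 to 1 after saline and from 0 to 1 after AMPH at 60 min, and lower member regions from 5 to 11 and from 3 to 7. After saline at 24 h, members higher ranged from 0 to 2, genes from 1302 to 2793, regions from 5791 to 14404, member regions higher from 1 to 3 and lower from 0 to 1. The most accessible regions ranged there from -0.45 to 1.55 for Kit, from -0.59 to 0.92 for Eya1 and from -0.44 to 0.22 for Th. After AMPH at 24 h, Kit ranged from -0.01 to 1.18, members lower from 0 to 1, genes from 2468 to 4034, and member regions from 7 to 15 higher and from 1 to 3 lower. Its regions ranged from -0.60 to 0.48 for Kit, from -0.02 to 0.36 and from -0.81 to 1.04 for the Eya1 regions at 140.9 kb and 13.03 kb, and from -3.32 to 1.60 for Th. Between PV and SST nuclei, members above ranged from 0 to 2 and genes from 2261 to 4643.

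For AMPH in IP at 60 min, the ranges were -0.02 to 0.23 for Vwc2, -0.20 to 0.07 for Btbd11 and 0.00 to 0.21 for Kit, and in UF -0.06 to 0.28 for Pthlh and -0.02 to 0.09 for Vwc2. In IP at 24 h they were -0.07 to 0.26 for Pthlh, -0.08 to 0.27 for Vwc2, -0.38 to 0.04 for Kit and -0.16 to 0.01 for Eya1, with 0 to 4 genes and 0 to 46 regions called. In UF at 24 h they were -0.37 to 0.29 for Pthlh, -0.17 to 0.12 for Vwc2, -0.19 to 0.15 for Btbd11, -0.06 to 0.46 for Kit and -0.15 to 0.30 for Eya1, with 0 to 2 genes and 30 to 69 regions. By fraction at 60 min they were -0.08 to 0.29 for Pthlh, -0.05 to 0.20 for Vwc2, -0.27 to 0.00 for Btbd11, -0.16 to 0.27 for Eya1 and -0.43 to 0.06 for Th. By fraction at 24 h they were -0.16 to 0.45 for Pthlh, -0.08 to 0.23 for Vwc2, -0.41 to 0.16 for Kit and -0.31 to 0.04 for Eya1, with 0 to 2 regions.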
